A study of Homo sapiens with 15 samples.

Results

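The genes described here are 7 chemokine genes that epithelial cells can express: CXCL1, CXCL2, CXCL3, CXCL5, CXCL8, CXCL16 and CCL20. They were listed by name, and where a gene has several probe sets the brightest on average over the 15 arrays was used. They are 7 of the 19775 genes measured, and all 7 reached the signal needed for testing, as did 8809 genes in all. Their levels were measured in Caco-2 cells, a line from a human colon carcinoma, used here undifferentiated, after 24 h under 15 conditions with 1 array for each. In 12 conditions the serum-free medium held 10% by volume of centrifuged fluid from a colon simulator, where bacteria had acted for 48 h on polydextrose, a glucose polymer that is poorly digested, supplied at 0%, 1% or 2%. Its 4 linked vessels stand for successive stretches of the colon: vessel 1 for the ascending part, vessel 2 for the transverse, vessel 3 for the descending and vessel 4 for the sigmoid part with the rectum. The other 3 conditions were 5 mM butyrate, 100 mM NaCl and medium alone. The vessels of a unit feed one another, and no repeat of any condition is listed. P-values here measure how far differences between concentrations vary among vessels 2, 3 and 4, and the spread of vessel 1 is not measured.

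CXCL1, CXCL2, CXCL3, CXCL5 and CXCL8 share the ELR motif (glutamate, leucine, arginine) ahead of their first cysteines, and attract neutrophils through CXCR2, CXCL8 also through CXCR1. CXCL16 is made as a membrane protein, is shed by ADAM proteases and binds CXCR6 on T cells, while CCL20 binds CCR6 on dendritic cells, B cells and T cells of the gut. Transcription of most of these genes is known to respond to NF-kB, and of CXCL8 also to AP-1.

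The 5 ELR genes lie together on human chromosome 4, from CXCL8 at chr4:73740569-73743716 through CXCL1, CXCL5 and CXCL3 to CXCL2 at chr4:74097040-74099195 (GRCh38.p14). CCL20 lies on chromosome 2 and CXCL16 on chromosome 17. The promoters below are shown because CXCL2, CXCL3 and CXCL5 were lower with 2% than with 0% polydextrose in vessels 2 to 4, while CXCL8 and CCL20 were not. Each line gives 160 bases, from 140 before the start of the gene onwards, from RefSeq on GRCh38.p14 and 5′ to 3′ on the gene's own strand. Capitals mark matches, on either strand, to the kappaB sequence GGAATTTCC, to the longer NF-kB consensus, which overlaps it, or to the AP-1 sequence TGANTCA.
CXCL2 promoter, chr4:74099176-74099335, minus strand: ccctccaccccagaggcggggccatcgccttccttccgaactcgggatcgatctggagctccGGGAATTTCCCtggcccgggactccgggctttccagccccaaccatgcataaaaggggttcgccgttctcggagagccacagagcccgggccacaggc
CXCL3 promoter, chr4:74038670-74038829, minus strand: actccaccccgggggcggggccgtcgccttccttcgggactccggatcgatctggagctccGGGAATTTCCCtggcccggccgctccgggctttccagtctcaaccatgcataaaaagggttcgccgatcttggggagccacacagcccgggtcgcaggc
CXCL5 promoter, chr4:73998658-73998817, minus strand: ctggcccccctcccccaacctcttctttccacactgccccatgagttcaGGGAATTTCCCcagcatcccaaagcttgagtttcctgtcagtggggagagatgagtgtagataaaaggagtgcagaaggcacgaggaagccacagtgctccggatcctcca
CXCL8 promoter, chr4:73740429-73740588, plus strand: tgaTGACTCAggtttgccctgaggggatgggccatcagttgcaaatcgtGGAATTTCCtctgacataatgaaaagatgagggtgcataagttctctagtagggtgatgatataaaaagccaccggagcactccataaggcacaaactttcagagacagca
CCL20 promoter, chr2:227813702-227813861, plus strand: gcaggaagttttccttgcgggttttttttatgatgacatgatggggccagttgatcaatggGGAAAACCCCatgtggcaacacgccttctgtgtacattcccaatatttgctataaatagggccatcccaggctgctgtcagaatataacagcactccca

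The 9-base kappaB sequence is found in all 5 ELR promoters, and 161 of 34796 distinct promoter windows of 300 bases hold it on either strand, a share of 0.463%. It begins 78 bases before the start in CXCL1 and CXCL3, 77 before it in CXCL2, 90 before it in CXCL5 and 91 before it in CXCL8. CXCL8 alone of the 6 genes with a window also holds the AP-1 sequence, which 7.72% of all windows hold. The longer NF-kB consensus is matched in CXCL1, CXCL2, CXCL3, CXCL5 and CCL20 and in 5.91% of all windows. Over the 160 bases the CXCL1 window, not printed, was 91.9% identical to that of CXCL2 and 90.6% to that of CXCL3, and CXCL2 and CXCL3 were 87.6% identical. The remaining pairs were 39.1% to 50.6% identical. A match is a description of the letters and shows no binding.

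The values are the deposited log2 expression values, so a difference of 1 is 2-fold, and under log2 5 a value was treated as below the limit of detection. Levels of different genes on this scale come from different probe sets and are not set against each other. Of the 10 epithelial markers measured, EPCAM, CDH1, KRT8, KRT18 and KRT19 stood at 12.7 or higher in all 15 arrays, while the intestinal markers VIL1, CDX1, CDX2, GPA33 and LGALS4 were under the limit in all 15. The cells are therefore called Caco-2 as labelled, with the intestinal markers not detected. All 6 leukocyte markers measured and 7 of 8 fibroblast and endothelial markers were under the limit in all 15 arrays, and only COL1A1 reached it, in 13 arrays, with 1.37 to 8.26 over all 15. Between 42.3% and 44.1% of genes reached the limit in each array. The 3′ minus 5′ difference of the ACTB control probe sets, a sign of RNA quality, was 0.59 with butyrate, 0.64 with NaCl and 0.95 with medium. It was 0.73, 0.92 and 0.62 in vessel 1 at 0%, 1% and 2%, and 0.37 to 0.64 in the 9 arrays of vessels 2 to 4.

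In vessels 2 to 4 the 2% fluids, against the 0% fluids, had lower expression of 5 of the 7 chemokines, namely CXCL1, CXCL2, CXCL3, CXCL5 and CXCL16. CCL20 rose slightly and CXCL8 did not pass the test. These differences were fitted with limma over the 12 fluid arrays with vessel as a block, and p-values were adjusted by Benjamini-Hochberg over all 8809 genes, with a threshold of 0.05. Over all genes tested 20.0% fell and 16.5% rose in this comparison, so that falling was common among genes at large. The median of the 5 ELR genes was −1.48 on the log2 scale, against −0.02 over all genes tested. Bulk RNA cannot tell a loss of RNA per cell from a loss of expressing cells.

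CXCL3, a neutrophil attractant, had the largest difference of the 7. Its log2 values were 6.94, 6.52 and 7.08 in the 2% fluids of vessels 2, 3 and 4, against 9.0, 8.69 and 9.62 in their 0% fluids. The 2 groups did not overlap, and the fitted log2 difference was −2.26 ± 0.16 (SE), 4.78-fold lower with an adjusted p of 0.000289. The 1% fluids, at 7.01, 7.38 and 7.93, lay between those of 2% and 0% within each vessel.

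CXCL2, also known as MIP-2α, had log2 values of 9.18, 9.23 and 9.50 in the 2% fluids of vessels 2, 3 and 4, against 10.55, 10.48 and 11.31 in the 0% fluids. CXCL1, also called GROα, had 8.05, 8.03 and 8.33 in the same 2% fluids and 9.21, 9.01 and 9.59 in the 0% fluids. Neither gene's groups overlapped, and vessel 4 was the highest of the 3 at both concentrations in both genes. The fitted log2 difference was −1.48 ± 0.13 (SE) for CXCL2 (adjusted p = 0.000425) and −1.13 ± 0.10 for CXCL1 (adjusted p = 0.00046). Because CXCL1, CXCL2 and CXCL3 are close paralogs and the probe set of CXCL2 carries the suffix that marks shared probes, their signals cannot be fully told apart. The probe sets used for CXCL5 and CXCL8 carry the same suffix, so their values may not be specific to 1 gene either. The other 2 probe sets of CXCL2 were under the limit in all 15 arrays and were not tested.

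CXCL5, or ENA-78, had log2 values of 11.23, 11.02 and 11.54 in the 2% fluids of vessels 2, 3 and 4, against 12.71, 12.78 and 12.85 in the 0% fluids. The 0% values lay close together and all above the 2% values. The fitted log2 difference was −1.52 ± 0.10 (SE, adjusted p = 0.000179), and its second brightest probe set gave −2.23, past the threshold when every probe set was tested on its own. The dimmest had 2 of its 3 values with 2% under the limit, and with these set at the limit the difference was −1.51. CXCL16 had 6.62, 6.51 and 6.99 in the 2% fluids and 7.81, 7.94 and 7.76 in the 0% fluids. It too had no overlap, with a fitted log2 difference of −1.13 ± 0.12 (SE, adjusted p = 0.000748).

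CXCL8, or interleukin 8, the best known of the neutrophil attractants, had 12.00, 12.15 and 12.32 in the 2% fluids of vessels 2, 3 and 4, against 12.14, 11.97 and 12.40 in the 0% fluids. Its groups overlapped. The fitted log2 difference was −0.01, with a 95% interval from −0.21 to 0.19 and an adjusted p of 0.948, so that a fall of the size seen in CXCL1 lies outside the interval. Its other probe set gave −0.16 (adjusted p = 0.472). CCL20 had 12.63, 12.62 and 12.65 in the 2% fluids and 12.33, 12.08 and 12.39 in the 0% fluids. Its groups did not overlap, and the fitted log2 difference was 0.37 ± 0.09 (SE, adjusted p = 0.0181), 1.29-fold higher. The call for CCL20 was lost without the 0% fluid of vessel 3 (adjusted p = 0.0581) and without the 2% fluid of vessel 2, 3 or 4 (adjusted p = 0.0586, 0.0674 and 0.0508).

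**Figure D1:**
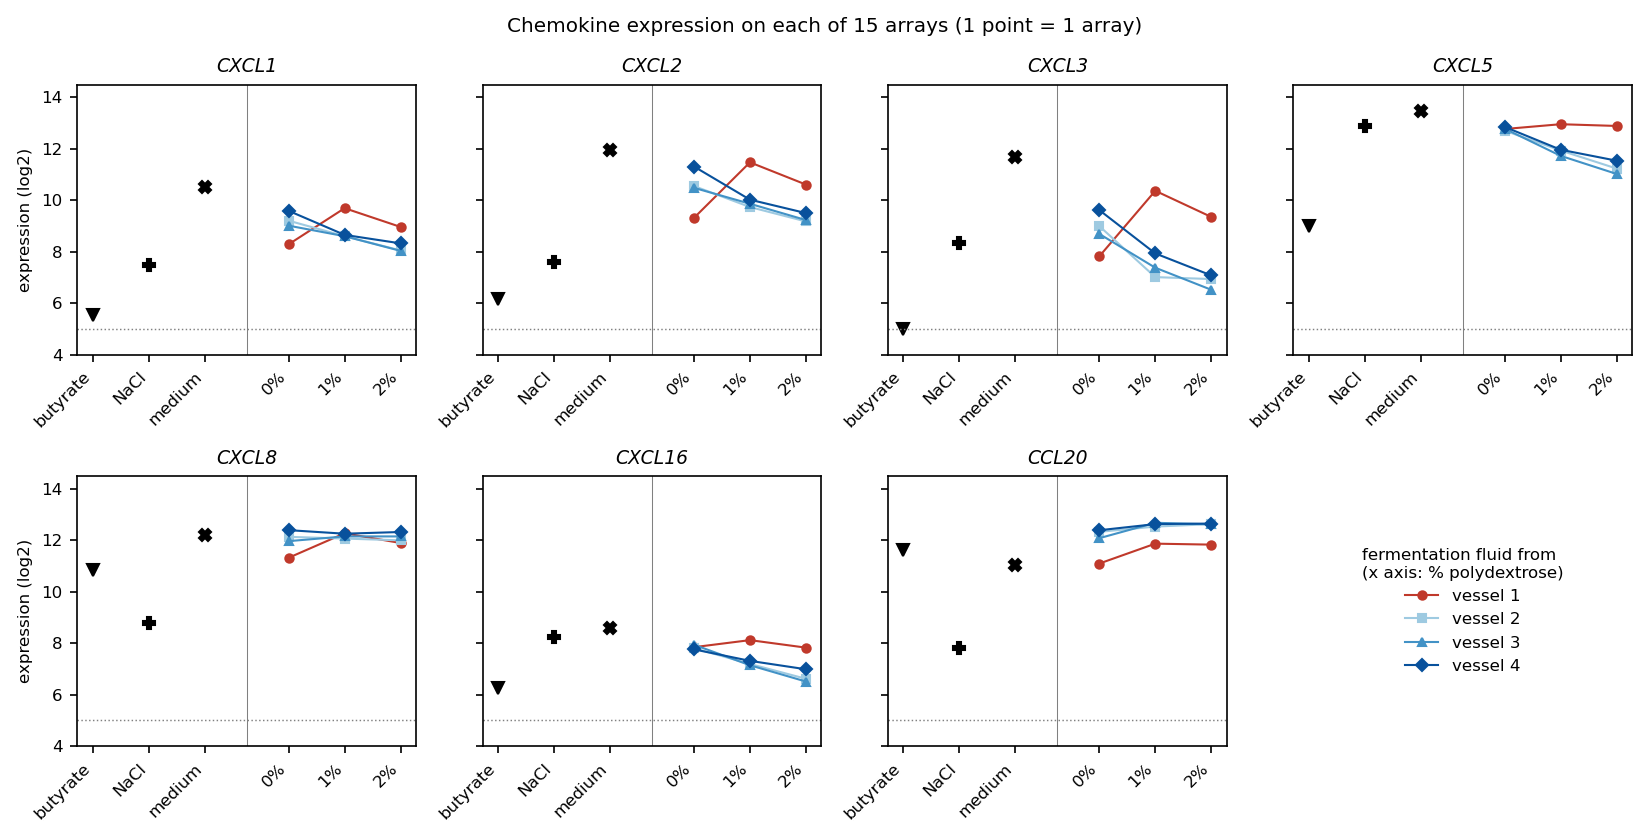
Log2 expression of the 7 chemokine genes on each of the 15 arrays, 1 point for each array. The x axis gives the 3 single treatments and then the polydextrose concentration of the fluid, lines join the arrays of a vessel, and the dotted line is the limit of detection at log2 5. In vessels 2 to 4 CXCL3 stood at 8.69 to 9.62 with 0% and at 6.52 to 7.08 with 2%, while vessel 1 had its highest value, 10.37, at 1%.

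Against the same 0% fluids, the 1% fluids of vessels 2 to 4 were lower in CXCL1, CXCL2, CXCL3, CXCL5 and CXCL16 and higher in CCL20. The fitted log2 differences were −1.66 for CXCL3, −0.91 for CXCL2 and for CXCL5, −0.65 for CXCL1, −0.62 for CXCL16 and 0.35 for CCL20. Their adjusted p-values were 0.00592, 0.00987, 0.00592, 0.0123, 0.0198 and 0.0481 in that order, beside 6.35% of all genes that fell and 6.62% that rose. CXCL8 differed by −0.01 (adjusted p = 0.964). Leaving out single arrays left 3 to 6 of these calls, with 3 left without the 1% fluid of vessel 4, where CXCL1 lost its call (adjusted p = 0.051). CXCL16 lost its call without the 0% fluid of vessel 2 or 3 or any 1 of the 1% fluids (adjusted p 0.0568 to 0.0804). CCL20 lost its call without any 1 of the 9 arrays of vessels 2 to 4 (adjusted p 0.0595 to 0.153).

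Between 2% and 1% in vessels 2 to 4, CXCL5 was the 1 member that passed the test. Its log2 values were 11.93, 11.73 and 11.97 in the 1% fluids, and the 2% fluids were lower by a fitted 0.61 (SE 0.10, adjusted p = 0.0336), where 1.29% of all genes fell. The call was lost in 12 of 23 alternative analyses, among them without the 0% fluid of vessel 2 or 4 or any 1 of the 1% and 2% fluids of vessels 2 to 4 (adjusted p 0.0545 to 0.119). The size depends on the probe set: with every probe set tested on its own, the second brightest gave −1.13 for 2% against 1% (adjusted p = 0.0554), beside −1.10 for 1% against 0%. CXCL1, CXCL2, CXCL3 and CXCL16 differed by −0.48 to −0.60 between 2% and 1%, with adjusted p-values of 0.0612 to 0.0982. CXCL8 differed by 0.00 and CCL20 by 0.02.

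The fluid of vessel 1 gave another pattern. There, with 1 array at each concentration, no ELR gene was lower with 2% than with 0%. CXCL3 had 7.82, 10.37 and 9.35 at 0%, 1% and 2% in vessel 1, CXCL2 had 9.32, 11.48 and 10.61, and CXCL1 had 8.29, 9.69 and 8.96. All 3 were highest at 1% and higher at 2% than at 0%. CXCL8 had 11.32, 12.27 and 11.90, also highest at 1%. CXCL5 stayed within 12.77 to 12.96 and CXCL16 within 7.83 to 8.12, and CCL20 had 11.10, 11.87 and 11.83.

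The difference in response was tested directly, as the 2% minus 0% difference in vessel 1 minus the same in vessels 2 to 4. It was positive in all 7 genes and passed the test in 5, namely CXCL1, CXCL2, CXCL3, CXCL5 and CXCL16, where 2.76% of all genes tested passed in that direction. For CXCL3 the 2% minus 0% difference was 1.53 in vessel 1, against −2.06, −2.17 and −2.54 in vessels 2, 3 and 4. The 2 responses were thus opposite in sign, and differed by 3.79 ± 0.33 on the log2 scale (SE, adjusted p = 0.00935), the 5th smallest p of the 8809 genes. For CXCL2 the difference was 1.30 in vessel 1, against −1.38, −1.25 and −1.81, which gave 2.78 ± 0.25 (SE, adjusted p = 0.00997). For CXCL1 it was 0.67 in vessel 1, against −1.16, −0.98 and −1.26, which gave 1.81 ± 0.20 (SE, adjusted p = 0.0135). These 3 genes had the opposite sign in vessel 1 from all 3 later vessels.

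CXCL5 and CXCL16 showed little difference in vessel 1 beside a fall in the later vessels. The 2% minus 0% difference of CXCL5 was 0.12 in vessel 1, against −1.47, −1.76 and −1.31 in vessels 2, 3 and 4, a difference in response of 1.64 ± 0.19 (SE, adjusted p = 0.0157). That of CXCL16 was −0.02 in vessel 1, against −1.19, −1.43 and −0.77, a difference of 1.11 ± 0.24 (SE, adjusted p = 0.0477). The CXCL16 call was lost in 11 of 20 alternative analyses, among them without the 0% fluid of vessel 2 or 3 (adjusted p = 0.0955 and 0.0737), without any 1 of the 1% fluids of vessels 2 to 4 (0.0662 to 0.0787) and without any 1 of their 2% fluids (0.0548 to 0.0833). For CXCL8 the 2% minus 0% difference was 0.57 in vessel 1, against −0.14, 0.18 and −0.07 in vessels 2, 3 and 4, and the difference in response did not pass (0.58, 95% interval 0.18 to 0.98, adjusted p = 0.1). CCL20 was higher with 2% in all 4 vessels, with differences of 0.74 in vessel 1, against 0.30, 0.54 and 0.26 in the later ones, and its responses could not be told apart (0.37, 95% interval −0.06 to 0.79, adjusted p = 0.266).

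**Figure D2:**
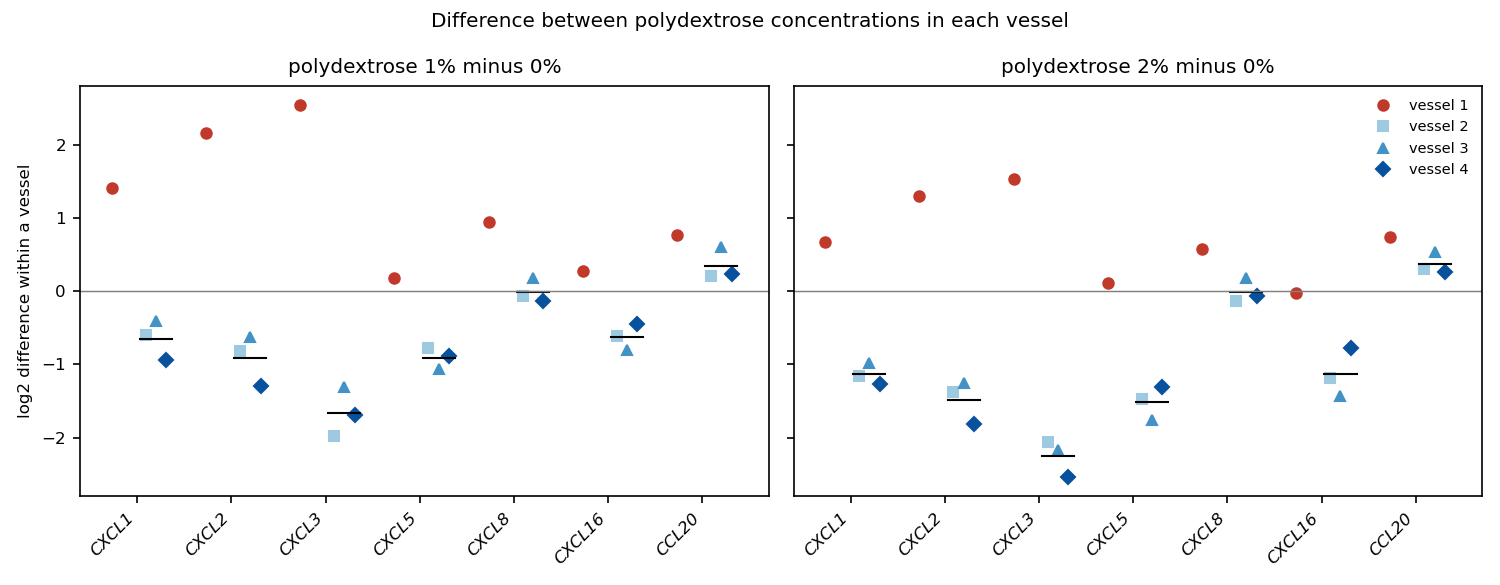
Log2 difference between polydextrose concentrations within each vessel, 1% minus 0% on the left and 2% minus 0% on the right, 1 point for each vessel. Black bars are the means of vessels 2 to 4. With 2%, CXCL1, CXCL2 and CXCL3 were above 0 in vessel 1, at 0.67, 1.30 and 1.53, and below 0 in each of vessels 2 to 4.

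At 1% the differences in response were larger for CXCL1, CXCL2 and CXCL3, the 3 GRO genes. The 1% minus 0% difference in vessel 1 exceeded that in vessels 2 to 4 by 4.21 ± 0.33 for CXCL3 (SE, adjusted p = 0.0104), by 3.07 ± 0.25 for CXCL2 (0.0104) and by 2.05 ± 0.20 for CXCL1 (0.0105). CXCL3 and CXCL2 had the 2nd and 3rd smallest p of all genes tested. CXCL5 and CXCL8 also passed, at 1.09 and 0.96 (adjusted p = 0.0365 and 0.0367), while CXCL16 at 0.89 and CCL20 at 0.43 did not (adjusted p = 0.0786 and 0.207). These 5 higher calls stand beside 2.42% of all genes. With every probe set tested on its own, the other probe set of CXCL8 gave 0.77 and did not pass. The other probe sets of CXCL5 gave 1.41 and 1.20 and did not pass either. The calls of CXCL5 and CXCL8 were lost in 10 and 11 of 20 alternative analyses: both were lost without the 0% fluid of vessel 2 or 4, any 1 of the 1% fluids of vessels 2 to 4, or the 2% fluid of vessel 2 or 4 (adjusted p 0.0528 to 0.0793), and CXCL5 also without the 0% fluid of vessel 3 (0.0562).

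Both the start and the end of the comparison differed between vessels in CXCL1, CXCL2 and CXCL3. In CXCL5 and CXCL16 only the end did: at 0% vessel 1 differed from the mean of the later vessels by −0.01 and 0.01. At 0% vessel 1 was lower than the mean of vessels 2 to 4 by 0.98 in CXCL1, 1.47 in CXCL2, 1.28 in CXCL3, 0.84 in CXCL8 and 1.17 in CCL20, and lay below all 3 of the later vessels in each. At 2% vessel 1 was higher than that mean by 0.83 in CXCL1, 1.31 in CXCL2, 2.51 in CXCL3, 1.62 in CXCL5 and 1.12 in CXCL16, above all 3 of the later vessels in each. CCL20 was lowest in vessel 1 at every concentration, by 1.17, 0.74 and 0.80 at 0%, 1% and 2%. Vessel 1 has 1 array at each concentration, which the model fits exactly and assumes to vary like the others. The 0% and 1% arrays of vessel 1 had the highest ACTB differences of the 12 fluid arrays, and their part in the result was not tested. COL1A1, the detected fibroblast marker, rose in vessels 2 to 4 with 2% against 0% by 1.24 (adjusted p = 0.00238), and its part was not tested either. When vessel 1 was pooled with the later vessels, the 2% minus 0% differences of CXCL1, CXCL2 and CXCL3 were −0.68, −0.79 and −1.31 and did not pass (adjusted p = 0.170, 0.282 and 0.194).

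Butyrate, a product of bacterial fermentation known to inhibit histone deacetylases, gave lower levels than medium in 6 of the 7 genes, each past 2-fold. With 1 array for each treatment no test was possible, and a gene was counted where the log2 difference was at least 1 and the brighter side at log2 6 or more. Among the 8057 genes bright enough 15.6% were lower by that rule. CXCL3 was under the limit with butyrate (4.98), against 11.68 with medium, at least 102-fold lower when the butyrate side is set at the limit. CXCL2 had 6.16 with butyrate and 11.96 with medium, CXCL1 had 5.56 and 10.52, and CXCL5 had 9.01 and 13.48, which are differences of −5.80, −4.97 and −4.47. CXCL16 had 6.27 with butyrate and 8.58 with medium. CXCL8 and CCL20 stood apart: CXCL8 had 10.87 with butyrate and 12.20 with medium, 2.51-fold lower, and CCL20 had 11.60 and 11.05.

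NaCl at 100 mM was lower than medium past 2-fold in 5 genes, where 7.67% of bright genes were lower. CXCL8 had 8.80 with NaCl and 12.20 with medium, CCL20 had 7.83 and 11.05, and CXCL2 had 7.62 and 11.96. CXCL1 had 7.49 with NaCl and 10.52 with medium, and CXCL3 had 8.36 and 11.68. CXCL5 (12.88 with NaCl and 13.48 with medium) and CXCL16 (8.25 and 8.58) differed by less than 2-fold. CXCL8 and CCL20 were thus at their lowest of all 15 arrays with NaCl, and the other 5 genes were at their lowest with butyrate. Set against NaCl instead of medium, butyrate was lower past 2-fold in 5 genes (17.0% of bright genes) and higher in CXCL8, by 2.07, and in CCL20, by 3.78 (15.9% of bright genes).

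Fluid without polydextrose also differed from medium. The 0% fluids of vessels 2 to 4 averaged 9.27 in CXCL1, 10.78 in CXCL2 and 9.10 in CXCL3, lower than medium by 1.25, 1.18 and 2.58, and 6.12% of bright genes were lower past 2-fold. CCL20 averaged 12.27 in these fluids and was higher than medium by 1.22, as 8.69% of bright genes were. The 0% fluid of vessel 1 was lower than medium in the same 3 genes, by 2.24 in CXCL1, 2.65 in CXCL2 and 3.86 in CXCL3 (2.53% of bright genes), and CCL20 differed by 0.05. The direction for CXCL1, CXCL2 and CXCL3 rests on which single array the fluids are set against. Against NaCl the 0% fluids of vessels 2 to 4 were higher by 1.78, 3.17 and 0.74. CXCL8 averaged 12.17 in these fluids, against 12.20 with medium and 8.80 with NaCl.

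The 2% fluids of vessels 2 to 4 were lower than medium past 2-fold in CXCL1, CXCL2, CXCL3, CXCL5 and CXCL16, by 1.88 to 4.83, as 13.2% of bright genes were. CCL20 averaged 12.63 in those fluids and was 3.00-fold higher than medium, among 13.3% of bright genes. CXCL8 differed by −0.04. Here too the direction for CXCL1 and CXCL2 rests on the array compared: against NaCl the same 2% fluids were higher by 0.65 and 1.69. They were lower than NaCl by 1.51 in CXCL3, 1.62 in CXCL5 and 1.55 in CXCL16. CXCL8, near its level in medium, was higher than NaCl by 3.36, and CCL20 was higher by 4.81. Set against butyrate, the same 2% fluids were higher past 2-fold in 6 genes (2.60% of bright genes), by 1.03 to 3.14, and CXCL16 differed by 0.43. Both comparisons share the 2% fluids, and the comparisons with medium share its 1 array.

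**Figure D3:**
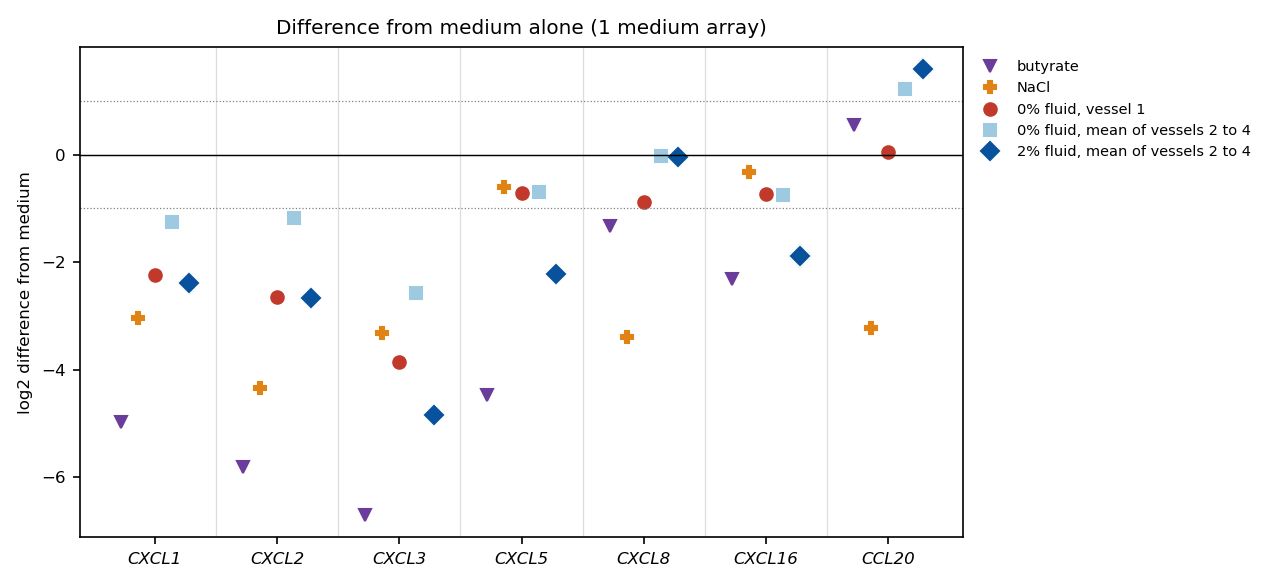
Log2 difference of each chemokine from medium alone, for butyrate, NaCl, the 0% fluid of vessel 1 and the means of the 0% and 2% fluids of vessels 2 to 4. Dotted lines mark a 2-fold difference, and no test was possible against the 1 medium array. CXCL3 with butyrate, at −6.70 as measured, lies under the limit of detection, and CCL20 is above 0 in every condition shown other than NaCl.

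Across the 12 fluid arrays CXCL1 and CXCL2 correlated with r = 0.99 and CXCL5 and CXCL16 with r = 0.99, while CXCL8 and CCL20 had r = 0.76 (rho 0.50). CXCL5 and CCL20 had r = −0.70. These points share the fluids, so the values describe the arrays only. The genes most like the mean standardized profile of the 5 ELR genes, members left out, were XBP1, TMEM154, GAB1, PTGS2, PLEKHG1, ZFP36L2, EIF4B and CPEB2, with r between 0.94 and 0.97 over the 12 arrays. CXCL8 had an r of 0.41 with that mean and CXCL5 0.79, both being part of the mean, which raises their r. CXCL16, which is not part of it, had 0.78.

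Of these, PTGS2, the inducible cyclooxygenase that makes prostaglandins, had 5.29, 4.53 and 5.55 in the 2% fluids of vessels 2, 3 and 4, against 7.33, 7.30 and 8.03 in the 0% fluids. The groups did not overlap, and 1 value with 2% was under the limit. PTGS2, which was also on the list of NF-kB targets, fell by 2.43 on the log2 scale (adjusted p = 0.000643), or by 2.27 with that value set at the limit. In vessel 1 it had 5.22, 7.54 and 6.89 at 0%, 1% and 2%, and its response differed from that of the later vessels by 4.10 ± 0.47 (SE, adjusted p = 0.0146). These 8 genes were picked for their likeness over these same arrays, so their differences between the fluids follow from the choice and carry no evidence of their own. XBP1, a factor of the unfolded protein response, had 5.37 with butyrate and 9.72 with medium, arrays that the choice did not use. This was the largest such difference of the 8. GAB1 had 5.62 with butyrate and 5.93 with medium, EIF4B had 11.23 and 11.39, and PLEKHG1 was under the limit in both. TMEM154, GAB1, PTGS2, PLEKHG1, ZFP36L2 and EIF4B were above medium in each 0% fluid of vessels 2 to 4, unlike CXCL1, CXCL2 and CXCL3. XBP1 was below medium in each, and CPEB2 in vessels 2 and 3 only.

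The other chemokines were mostly silent. Of 24 measured, 4 reached the limit in any array. CXCL6, another ELR chemokine, stood at 1.92 or less throughout. In the 2% against 0% comparison of vessels 2 to 4, 1 of 3 tested passed, PF4 (−0.45, adjusted p = 0.0426), where 20.0% of all genes tested fell and 16.5% rose. CCL26, an eosinophil attractant, differed by −0.23 (adjusted p = 0.0782) but had a difference in response between vessel 1 and the later vessels of 1.13 (adjusted p = 0.0283). Of 13 receptors measured only CXCR2, which binds the ELR chemokines, was tested. It had 4.82, 4.38 and 4.77 in the 2% fluids of vessels 2, 3 and 4, all under the limit, against 5.16, 5.22 and 5.71 in the 0% fluids. Its fitted fall passed (adjusted p = 0.00954), but its size has only a bound, at least 0.36 on the log2 scale with the 2% side set at the limit.

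Genes of the pathway that switches these chemokines on were called in both directions with 2% against 0% in vessels 2 to 4, where 20.0% of all genes tested fell and 16.5% rose. Of 15 upstream receptors and adaptors tested 6 fell, among them TNFRSF1A, the TNF receptor (−0.81, adjusted p = 0.00228), IRAK1, a kinase below interleukin 1 and Toll-like receptors (−0.55, 0.00152) and TRAF3IP2, the interleukin 17 adaptor (−0.56, 0.00271). IL1RAP was the 1 that rose. Of 11 NF-kB subunits and kinases measured 8 were tested. NFKB1, under the limit in the 0% and 2% fluids of vessels 2 to 4, was not. Of 8 NF-kB subunits and kinases 0 fell and 1 rose, MAP3K14, the kinase of the noncanonical branch (0.94, adjusted p = 0.000313), whose response in vessel 1 was lower by 0.98 (adjusted p = 0.0247). Of 7 inhibitors 2 fell, NFKBIA (−0.35, adjusted p = 0.0242) and TNIP1 (−0.36, 0.0265), and the deubiquitinase CYLD rose (0.92, 0.00081). TNFAIP3, which encodes A20, differed by 0.15 (adjusted p = 0.414). The list medians were −0.23 for the receptors and adaptors, 0.09 for the subunits and −0.09 for the inhibitors, against −0.02 over all genes tested.

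Other genes known as NF-kB targets fell in 4 of 11 cases, and 0 rose, with a list median of −0.18, beside 20.0% of all genes tested that fell and 16.5% that rose. LIF, a cytokine of the interleukin 6 family, fell by 1.53 (adjusted p = 7.58e-05), or by 1.37 with the 2 of its 3 values with 2% that were under the limit set at the limit, and IL32 by 0.72 (0.00107), beside PTGS2 above. Vessel 1 differed from the later vessels in LIF by 1.5 (adjusted p = 0.00997) as in PTGS2. Of 11 AP-1 and C/EBP factors 4 rose and 2 fell. FOS rose by 1.98 (adjusted p = 0.000358) and JUN by 0.95 (0.00197), while FOSL2 fell by 0.66 (0.0033) and had a positive difference in response in vessel 1 of 0.99 (0.0471). Their median was 0.12.

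Of 9 genes that act on the decay and stability of chemokine mRNA, 2 rose and 2 fell, shares close to the 16.5% and 20.0% of all genes tested. ZFP36, or tristetraprolin, which speeds the decay of AU-rich messages, rose by 0.57 (adjusted p = 0.00738), and HNRNPD fell by 0.54 (0.00295). Of 5 genes for shedding and glycan partners 2 fell and 1 rose, a count too small to set against those shares. SDC1, a heparan sulfate proteoglycan of the cell surface, fell by 1.04 (adjusted p = 0.00107) and SDC4 rose by 0.75 (0.000882). ADAM10, a protease that sheds CXCL16, fell by 0.19 (adjusted p = 0.047).

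**Figure D4:**
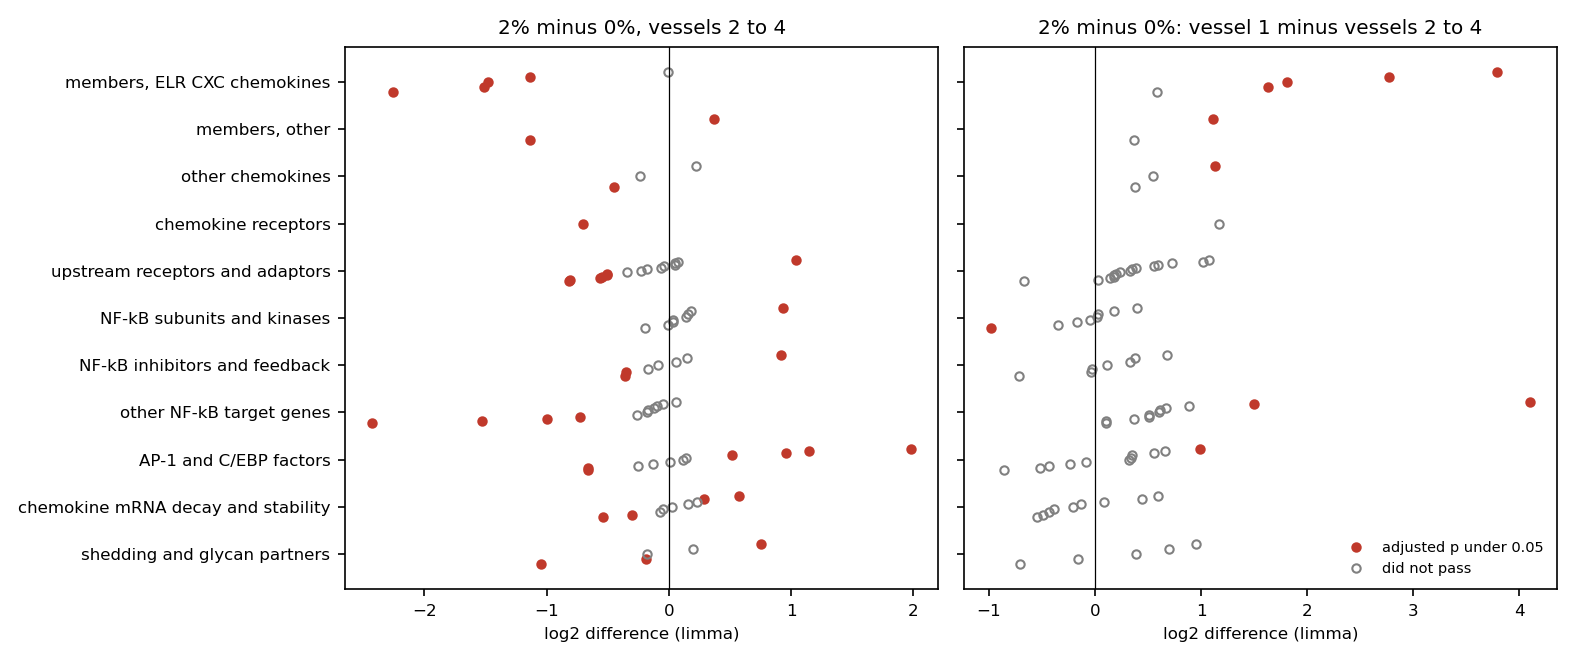
Fitted log2 differences of every tested gene in the listed groups, 1 point for each gene, for 2% minus 0% in vessels 2 to 4 (left) and for that difference in vessel 1 minus that in vessels 2 to 4 (right). Filled points passed an adjusted p of 0.05 over all 8809 genes (limma). CXCL3 is the lowest ELR chemokine on the left, at −2.26, and the highest on the right, at 3.79, and PTGS2 is the highest point on the right, at 4.10.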

How the data were processed

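Total RNA from 15 cultures was labelled and hybridised to Affymetrix arrays. Per the submitters' processing notes the authors used GCRMA, with no version given, so the deposited log2 values had been background-corrected, normalized and summarized. They run from 0.173 to 14.46, and the log2 scale was inferred from them. Depth does not apply to arrays, whose number limits the precision. Probe sets with 1 gene symbol in the platform annotation (41097 of 54675) gave 19775 genes, each read from its brightest probe set on average.

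Genes at log2 5 or more in at least 3 of 12 fluid arrays (8809) entered a linear model in limma 3.58.1 (R 4.3.3). Vessel (4 levels), concentration and concentration by vessel 1 were terms, which left 4 residual and 3.3 prior degrees of freedom. P-values were two-sided. Vessel was the replicate block because the labels give it. Of 12 pairs of arrays of 1 vessel, 10 had deviations from their concentration means correlating over 0.1 (0.02 to 0.78). Those means include vessel 1, and pairs of different vessels were not compared, so the figures cannot show that arrays pair by vessel. Single arrays were compared without a test. The fit was also run on simulated data with independent noise for each array. Vessels that feed one another may not be independent, so that run cannot show how calls hold here. Promoter identity came from global alignment (Biopython 1.88).

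Alternatives changed 1 choice at a time: filter, probe set rule, quantile normalization or median centring, trend and robust prior, and no replicate block. Others were vessel 1 pooled, only the arrays compared, NaCl in place of medium, 1.5-fold, and each array left out. Named genes were the members, up to 3 of each list passing each of 2 tests, PTGS2, NFKBIA, TNFAIP3 and the 8 most alike genes. COL1A1, NFKB1, IL1RAP and CXCL6 were named after their values were seen. So were the butyrate and medium values of the 8 most alike genes, and the CCL2 and CCL26 values with NaCl. The 2% fluids against NaCl and values set at the limit for CXCL5, CXCR2, LIF and PTGS2 were added after the data were seen. The members and lists were chosen with earlier results of these data known.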

Additional observations from a re-analysis of the deposited data

Results flagged for a closer look

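Among the 4 fluids of a concentration, 1 array stood far from the other 3 in 3 of 21 groups examined by Dixon's ratio of the gap to the range, at its 95% critical value, and chance passes about 1 group in 20. All 3 were arrays of vessel 1: CXCL1 at 1% was high (ratio 0.953), CXCL2 at 1% was high (0.835) and CCL20 at 2% was low (0.961). The response to 2% against 0% differed between vessel 1 and vessels 2 to 4, by limma with adjusted p-values given above, in CXCL1 by 1.81, in CXCL2 by 2.78, in CXCL3 by 3.79, in CXCL5 by 1.64 and in CXCL16 by 1.11 on the log2 scale. At 1% against 0% it differed in CXCL1 by 2.05, in CXCL2 by 3.07, in CXCL3 by 4.21, in CXCL5 by 1.09 and in CXCL8 by 0.96. The cause was not tested, and vessel 1 has 1 array at each concentration.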

How the results depend on the processing

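Of 875 values of single chemokines under alternatives, 747 stayed the same, 78 lost a call, 11 gained one, 18 without a test moved and 21 changed sign. A tested value stayed the same if it kept its direction and side of the threshold. A value without a test did so if it moved by less than the gene's residual SD. Without a test, a change of sign was counted only where the main difference was at least 1 on the log2 scale. With 2% against 0% in vessels 2 to 4 the 6 members that passed became 3 with vessel 1 pooled, and with 1% against 0% they became 1. Leaving out single arrays gave 5 to 6 and 3 to 6. For 2% against 1%, in place of 1 member, 0 passed with no filter on low signal, with every probe set on its own, with vessel 1 pooled and with only the arrays compared, while 4 passed with log2 6 in all 12 arrays, 2 with median centring and 5 with an intensity trend and robust prior, and leaving out single arrays gave 0 to 1. For the difference in response, the 5 members passing at 2% became 3 with only the arrays compared (4 to 5 without single arrays). At 1% the 5 became 3 with no filter and 1 with only the arrays compared, when CXCL1, CXCL2, CXCL5 and CXCL8 lost their calls, and 3 to 5 without single arrays. Without the replicate block 6, 6, 1, 5 and 4 members passed in these 5 comparisons. The signs counted as turned belong to differences near 0, apart from those against NaCl. CXCL8 for 2% against 0% was 0.0052 after quantile normalization, 0.1371 with vessel 1 pooled and −0.1039 to 0.0408 without single arrays. For 1% against 0% it was 0.0400 with the mean of its probe sets, 0.2325 with vessel 1 pooled and −0.1028 to 0.0425 without single arrays. For 2% against 1% it was 0.0147 after quantile normalization and −0.0507 to 0.0479 without single arrays, and CCL20 was −0.0076 with median centring and −0.0362 to 0.1022. With NaCl in place of medium the 0% fluids of vessels 2 to 4 differed by 1.78 in CXCL1, 3.17 in CXCL2 and 0.74 in CXCL3. Over all genes, 3216, 1142, 153, 366 and 319 passed in the 5 comparisons, and under alternatives 1824 to 5118, 177 to 1625, 0 to 588, 43 to 794 and 2 to 780. The difference in response cannot be computed without the vessel 1 array of either concentration compared. The cause of these changes was not tested. The number of arrays, 1 in vessel 1 for each concentration and 1 for each other treatment, limits the precision.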

Other observations

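The chemokines CCL2 and CCL26 were at their highest with NaCl. CCL2, a monocyte attractant, had 8.70 with NaCl, against 2.98 with medium, and was 2.60 or less in the 12 fluids. CCL26 had 13.01 with NaCl and 5.56 with medium, while CXCL8 and CCL20 were at their lowest there. NFKBIA, the inhibitor that NF-kB induces, had 11.71 with NaCl and 10.07 with medium, and 7.81 with butyrate. FOS had 9.18 with butyrate and 4.5 with medium, and 9.05, 9.57 and 9.05 in the 2% fluids of vessels 2, 3 and 4, against 7.32, 7.05 and 7.35 in the 0% fluids. These are values of single arrays for NaCl, butyrate and medium, with no test.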
